A study of Homo sapiens with 30 samples.

Results

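The tumour suppressor p53 is a transcription factor that is stabilised when cells meet DNA damage or other stress. It binds paired half-sites in or near its target genes and raises their transcription, and the products stop the cell cycle, repair DNA or start apoptosis. MDM2, itself a target, marks p53 for degradation and closes a negative feedback loop. The genes described here are well known p53 targets listed by symbol, and all 10 of 10 have a row among the 16009 genes of the deposited table, namely CDKN1A, MDM2, BBC3, BAX, TNFRSF10B, XPC, DDB2, TIGAR, GDF15 and ZMAT3.

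MEL624 is a human melanoma cell line. The series holds 30 samples, of which 18 from a first stage that compared antibodies are not analysed here. The 12 others are 3 immunoprecipitations (IPs) and 3 inputs of PCIF1 KO cells, and 3 IPs and 3 inputs of control cells, which the labels give as wild type with a random sgRNA. PCIF1 is the enzyme that adds the N6 methyl group to a 2′-O-methylated adenosine next to the mRNA cap and so makes m6Am. In m6Am-Exo-Seq, 5′ end fragments of mRNA are protected by the cap and are then pulled down with an antibody to N6-methyladenosine, so that an input reads the abundance of 5′ ends and an IP the pulled-down part of them. No p53-activating treatment is named in the labels, and the cells were grown in standard medium. The labels do not say whether the KO replicates come from different clones, so that KO and clone cannot be told apart and p-values cover only the spread between these samples.

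The values are log2 CPM (library-scaled read counts) in the region of each gene's transcription start. The table holds 1753164 to 2177874 reads in the KO IPs, 4035815 to 4625190 in the control IPs, 2836120 to 3544669 in the KO inputs and 3232562 to 4094070 in the control inputs. Libraries of a group are called 1, 2 and 3 by the number in their column, which is a name only. PCIF1 itself had a higher level in the KO inputs, with a log2 difference of 0.50 ± 0.14 from the control inputs (SE, adjusted p = 0.0229, limma with Benjamini-Hochberg adjustment). Reads at its start need not lie in the edited stretch, so that this does not check the knockout. Of 14 melanocyte-lineage genes, 4 (MITF, PAX3, RAB27A and CDK2) were measured, with summed CPM of between 178 and 212 in KO IPs, between 245 and 274 in control IPs, between 154 and 188 in KO inputs and between 168 and 175 in control inputs. PMEL, MLANA, TYR and SOX10 had no row, and whether their levels were too low to be kept is not known. The sums of the 4 genes thus do not check the lineage. No keratinocyte, fibroblast, leukocyte or endothelial marker of the lists had a row either.

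The starts of the genes whose results are described most closely are shown first, because the first transcribed base decides whether a cap can carry m6Am. They come from the RefSeq promoter table on GRCh38.p14. Each holds 50 bases before the start and the start base in capitals, and the entry used was the one nearest to the start of the canonical transcript.
CDKN1A, chr6:36678664-36678723, plus strand: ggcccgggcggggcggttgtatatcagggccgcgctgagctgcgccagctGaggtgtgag
GDF15, chr19:18386108-18386167, plus strand: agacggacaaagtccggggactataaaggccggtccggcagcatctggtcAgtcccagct
XPC, chr3:14178592-14178651, minus strand: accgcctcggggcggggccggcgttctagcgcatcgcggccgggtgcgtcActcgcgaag
TIGAR, chr12:4321163-4321222, plus strand: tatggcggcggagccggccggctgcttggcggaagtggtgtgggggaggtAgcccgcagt
MDM2, first promoter, chr12:68808127-68808186, plus strand: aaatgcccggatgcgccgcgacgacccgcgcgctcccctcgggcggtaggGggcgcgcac
MDM2, internal promoter, chr12:68808974-68809033, plus strand: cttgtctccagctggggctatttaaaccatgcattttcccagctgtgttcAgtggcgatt
The GDF15 window holds TATAAA, a motif searched on the strand of the gene only. Of the 35116 promoter entries of 300 bases, 7.33% contain it. The internal MDM2 promoter is the one known to respond to p53, while the first promoter works without it. Which start each row of the table counts is not given in the sources used here, so that the share of either MDM2 promoter in the reads is unknown.

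DDB2 is shown separately because its start region was the only one of the 9 examined to match the p53 half-site consensus. That consensus is 10 bases long and reads the same on both strands, and 6.63% of all promoter entries hold a match. In DDB2 a pair of matches, in capitals, lies just after the start, beginning 6 and 17 bases in when the start base counts as 1, with 1 base between them.
DDB2, chr11:47214954-47215002, plus strand, from 20 bases before the start: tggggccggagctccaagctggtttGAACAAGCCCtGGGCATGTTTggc
Only 10 of the 35116 entries hold such a pair with at most 13 bases between them. A match describes these letters and not binding, and p53 sites of other targets are known to lie farther away than this window reaches.

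The comparison of KO with control inputs asks whether 5′ ends of p53 targets differ in abundance without PCIF1. Among the 10 genes, CDKN1A and DDB2 were lower in KO inputs and none was higher, while 11.2% of all genes were called at an adjusted p under 0.05, 5.67% lower and 5.56% higher. The median difference was −0.11 on the log2 scale for the 10 genes and −0.02 for all genes. The other 8 did not pass the test.

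CDKN1A (ENSG00000124762, GENCODE 44 on hg38, chr6:36676460-36687337, plus strand) encodes p21, the inhibitor of cyclin-dependent kinases through which p53 stops the cell cycle. Its start region had 51.1, 51.8 and 38.1 CPM in KO inputs, against 121, 117 and 107 CPM in control inputs. Every KO input lay far below every control input. The level was 47.0 ± 7.73 CPM in KO inputs and 115 ± 6.95 CPM in control inputs (SD, n = 3 each). This is a 2.46-fold lower level, a log2 difference of −1.30 ± 0.13 (SE, 95% interval −1.58 to −1.02, adjusted p = 2.03e-06, limma). Leaving out any 1 input library gave −1.38 to −1.16. In the 5 Mb on either side of CDKN1A, 85 genes with a mean log2 CPM of at least 3 had a median input difference of −0.13, and 56 of them were below 0. The opposite-strand lncRNA DINOL starts 155 bases from the canonical CDKN1A start, and strand handling in the counting is not given, so that its reads could be among those of CDKN1A.

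DDB2 (ENSG00000134574, chr11:47214465-47239217, plus strand) encodes a damage-recognition subunit that brings nucleotide excision repair to ultraviolet lesions. It had 22.5, 27.7 and 20.9 CPM in KO inputs, against 42.3, 36.7 and 35.1 CPM in control inputs. The groups did not overlap. The level was 1.61-fold lower in KO inputs, a log2 difference of −0.69 ± 0.13 (SE, 95% interval −0.97 to −0.41, adjusted p = 0.00182, limma). Genes within 5 Mb of DDB2 had a median difference of 0.00, with 16 of 32 below 0. XPC (ENSG00000154767, chr3:14145147-14178621, minus strand), which senses the same kind of damage one step later in that pathway, had 27.0, 21.5 and 22.5 CPM in KO inputs against 25.3, 22.5 and 25.2 CPM in control inputs. Its ranges overlapped, and its difference was −0.05 (95% interval −0.30 to 0.20, adjusted p = 0.870).

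MDM2 (ENSG00000135679, chr12:68808177-68845544, plus strand), the ubiquitin ligase of the feedback loop, had 58.3, 52.3 and 49.1 CPM in KO inputs and 73.7, 56.7 and 66.3 CPM in control inputs. The highest KO input exceeded the lowest control input. Its log2 difference of −0.30 (95% interval −0.63 to 0.04, adjusted p = 0.286, limma) did not pass the test.

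Of the apoptosis genes, none passed the test between inputs. BBC3 (ENSG00000105327, chr19:47220822-47232766, minus strand) encodes PUMA, a BH3-only protein that unleashes mitochondrial apoptosis. It had 53.7, 58.8 and 60.5 CPM in KO inputs against 61.1, 62.9 and 70.1 CPM in control inputs. BBC3, like CDKN1A and DDB2, had every KO input below every control input, and 31.7% of all genes had inputs that did not overlap in either direction, yet its difference of −0.16 (95% interval −0.42 to 0.09) had an adjusted p of 0.457 (limma). BAX (ENSG00000087088, chr19:48954815-48961798, plus strand), the pore-forming member of the BCL2 family, had 77.0, 72.3 and 81.0 CPM in KO inputs against 87.4, 77.1 and 67.8 CPM in control inputs, a difference of −0.01 (95% interval −0.22 to 0.21). TNFRSF10B (ENSG00000120889, chr8:23020133-23069031, minus strand), the death receptor DR5 for the ligand TRAIL, had 162, 152 and 138 CPM in KO inputs against 143, 122 and 134 CPM in control inputs. Its difference of 0.18 (95% interval −0.02 to 0.38) had an adjusted p of 0.266, and the ranges overlapped.

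The remaining genes act in metabolism, secreted signalling and RNA binding. TIGAR (ENSG00000078237, chr12:4307763-4360028, plus strand), a phosphatase that lowers glycolytic flux, had 5.53, 7.65 and 5.92 CPM in KO inputs against 8.41, 7.87 and 6.50 CPM in control inputs. GDF15 (ENSG00000130513, chr19:18374731-18389176, plus strand), a secreted stress cytokine, had 543, 486 and 436 CPM in KO inputs against 534, 426 and 496 CPM in control inputs. Both had overlapping ranges, with log2 differences of −0.26 (95% interval −0.71 to 0.19) for TIGAR and 0.01 (95% interval −0.26 to 0.28) for GDF15. ZMAT3 (ENSG00000172667, chr3:178960121-179072215, minus strand), an RNA-binding zinc finger protein, was read so rarely that only reads are given, with 2, 2 and 3 in KO inputs against 3, 0 and 0 in control inputs. No difference of ZMAT3 inputs was detectable at this depth.

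**Figure D1:**
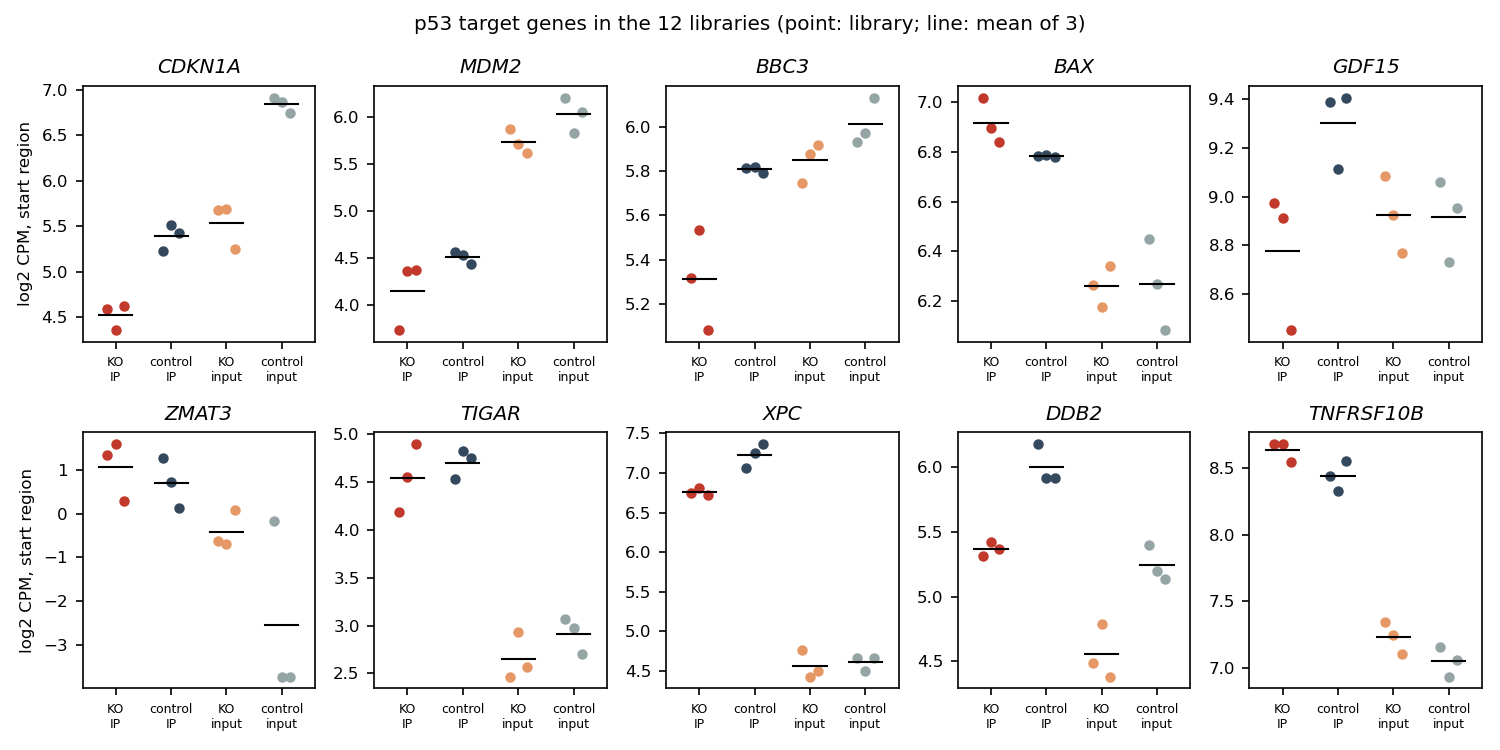
Log2 CPM of the start region of each of the 10 genes in the 12 libraries, with KO IPs, control IPs, KO inputs and control inputs from left to right and each panel on its own axis. Points are libraries and lines are means of 3. CDKN1A and DDB2 inputs are separate between KO and control, while XPC and TNFRSF10B differ mainly between IPs and inputs.

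**Figure D2:**
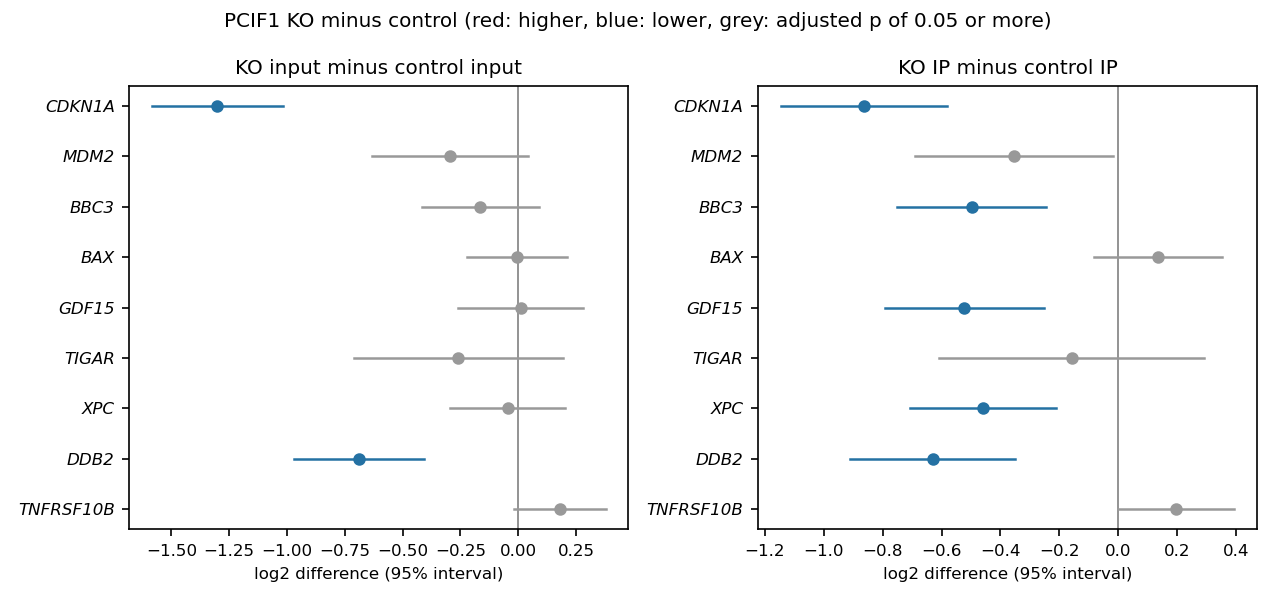
Log2 difference of KO minus control for inputs (left) and for IPs (right) with 95% intervals, for 9 of the genes, without ZMAT3, which had few reads. Red would mark a higher and blue a lower level at an adjusted p under 0.05. CDKN1A and DDB2 are lower in inputs, and CDKN1A, DDB2, GDF15, BBC3 and XPC are lower in IPs.

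IPs were next set against their inputs, which asks how strongly the antibody drew the 5′ ends of each mRNA. In KO cells, 8 of the 10 genes passed the test, 5 enriched and 3 depleted, against 59.4% of all genes, 28.4% enriched and 31% depleted. IPs and inputs did not overlap for 9 of the 10, against 61.3% of all genes. In control cells 9 passed, 7 enriched and 2 depleted, against 55.9% of all genes, 27.7% enriched and 28.2% depleted. The 7 include ZMAT3, which had 3 reads in all control inputs together. There IPs and inputs were separate for all 10, against 66.5% of all genes. The median of the 10 was 0.74 in KO and 0.64 in control cells on the log2 scale, against −0.07 and −0.01 for all genes. With a filter of mean log2 CPM of at least 1, 8773 of 12950 genes passed in KO and 8475 in control cells.

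The 2 DNA repair genes and TNFRSF10B were enriched in both genotypes, and CDKN1A and MDM2 were depleted in both. XPC had 107, 113 and 106 CPM in KO IPs and 133, 152 and 165 CPM in control IPs, all several-fold above its inputs. Its enrichment was 2.21 ± 0.12 in KO cells (SE, adjusted p = 6.77e-12) and 2.62 ± 0.12 in control cells (SE, adjusted p = 8.03e-13, limma). XPC starts 216 bases from the start of LSM3 on the opposite strand, which is measured too, and reads of the pair could not be told apart without strand. DDB2 had 39.8, 42.9 and 41.3 CPM in KO IPs and 72.3, 60.2 and 60.2 CPM in control IPs, with enrichments of 0.81 in KO and 0.76 in control cells. TNFRSF10B had 409, 409 and 374 CPM in KO IPs and 347, 320 and 374 CPM in control IPs, with enrichments of 1.40 in KO and 1.38 in control cells. These libraries stood well above the inputs in both genotypes, and a lncRNA on the opposite strand covers the TNFRSF10B start.

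CDKN1A had 24.1, 20.5 and 24.7 CPM in KO IPs and 37.6, 45.7 and 43.0 CPM in control IPs, below all inputs of its genotype. Its enrichment was −1.01 (95% interval −1.30 to −0.73) in KO and −1.45 (95% interval −1.73 to −1.17) in control cells. MDM2 had 13.3, 20.5 and 20.7 CPM in KO IPs and 23.6, 23.2 and 21.7 CPM in control IPs, and its enrichment was −1.58 in KO and −1.52 in control cells. With ribosomal protein mRNAs as the zero point, the depletion in control cells no longer passed the test, at −0.14 for CDKN1A and −0.21 for MDM2. Those mRNAs were themselves depleted in control cells, with a median of −1.14 and 57 of 79 called lower. This centring thus reads depletion relative to a depleted set.

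TIGAR and BAX were also enriched in both genotypes. TIGAR had 18.2, 23.5 and 29.8 CPM in KO IPs and 23.1, 28.4 and 27.0 CPM in control IPs, with enrichments of 1.89 in KO and 1.79 in control cells. Its canonical start lies inside a readthrough gene on the same strand, which could share its reads. BAX had 130, 119 and 115 CPM in KO IPs and 110, 111 and 110 CPM in control IPs, with enrichments of 0.66 in KO and 0.52 in control cells. ZMAT3 had 5, 6 and 2 reads in KO IPs and 10, 6 and 4 reads in control IPs. Summed over libraries and scaled to depth, ZMAT3 was 3.26-fold higher in KO IPs than in KO inputs (95% counting interval 1.21 to 9.66) and 6.37-fold higher in control IPs than in control inputs (1.89 to 33.5), an interval that covers counting error only.

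GDF15, BBC3 and ZMAT3 passed the test in 1 genotype each. On its few reads, ZMAT3 was called enriched in control cells (adjusted p = 0.00347) and not in KO cells (adjusted p = 0.149, limma). GDF15 had 503, 481 and 350 CPM in KO IPs, which overlap its inputs, and 670, 553 and 678 CPM in control IPs, which do not. Its enrichment was −0.15 (adjusted p = 0.339) in KO and 0.39 (adjusted p = 0.0156) in control cells, and the control value did not pass without control input 2, control IP 1 or control IP 3 (0.30 to 0.34 on the log2 scale). BBC3 had 39.8, 46.3 and 33.8 CPM in KO IPs and 56.2, 56.5 and 55.4 CPM in control IPs. Its enrichment was −0.54 (adjusted p = 0.000745) in KO and −0.20 (adjusted p = 0.162) in control cells. Under ribosomal protein centring BBC3 had −0.23 in KO cells and, with the sign turned, 1.10 in control cells.

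**Figure D3:**
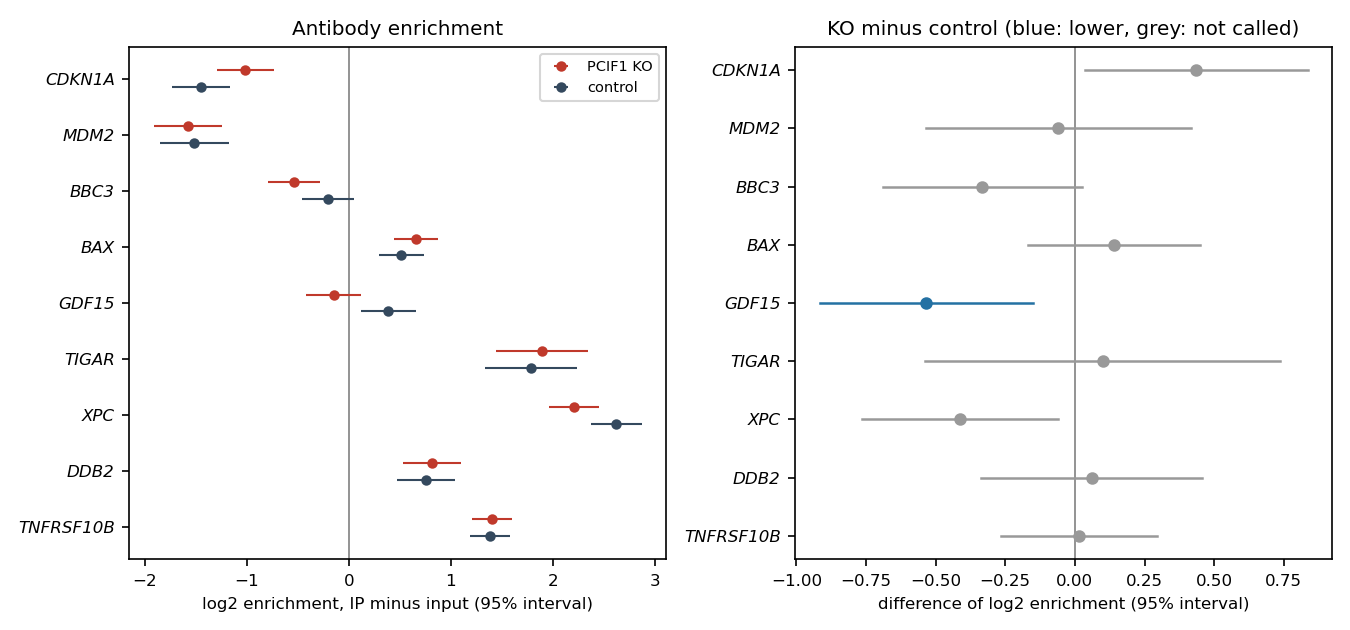
Left, log2 enrichment (IP minus input) with 95% intervals in PCIF1 KO cells (red) and control cells (dark blue) for 9 of the genes, without ZMAT3. Right, the difference of enrichment, KO minus control, with GDF15 as the only gene called. XPC is enriched by 2.21 in KO and 2.62 in control cells, and CDKN1A and MDM2 lie below 0 in both.

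The difference of enrichment, KO minus control, asks whether the pull-down of an mRNA changed without PCIF1 beyond its change in abundance. Values are scaled within each library, so that this change is relative to the other genes. A loss of pull-down shared by most mRNAs would not show. Of the 10 genes only GDF15 passed, with lower enrichment in KO cells, against 28.8% of all genes, 15.8% lower and 13% higher. Its difference was −0.53 ± 0.18 (SE, 95% interval −0.92 to −0.15, adjusted p = 0.0339, limma). The call was lost in 7 of the 12 fits that left out 1 library (without KO IP 3, control IP 1 or 3, KO input 1 or 2, or control input 2 or 3), with differences of −0.63 to −0.37 over all 12. MIR3189 lies 404 bases downstream of the GDF15 start on the same strand and has its own row. XPC had −0.41 (95% interval −0.77 to −0.06, adjusted p = 0.0725) and, of the 12 fits that left out 1 library, passed only without control IP 1, at −0.50 (adjusted p = 0.0485). CDKN1A had 0.44 (95% interval 0.04 to 0.84, adjusted p = 0.0948), a sign that turned to −0.57 under ribosomal protein centring. BBC3 had −0.33 (95% interval −0.69 to 0.02). MDM2, BAX, TIGAR, DDB2 and TNFRSF10B lay between −0.06 and 0.14, and the intervals of MDM2 and TIGAR reach −0.54 at the low end. The median of the 10 was −0.02, against −0.06 for all genes. With ribosomal protein mRNAs as the zero point, 9 of the 10 were called lower, and the median of all genes was −1.06. Before that centring, the ribosomal protein mRNAs themselves had a median of 0.54.

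The first base of the start shown differs among the genes. By the RefSeq start nearest to the canonical transcript, 5 of the 9 examined begin with A (BBC3, GDF15, ZMAT3, TIGAR and XPC) and the others with G. Of the 4 A-start genes with enough reads, GDF15, XPC and BBC3 had differences of −0.53, −0.41 and −0.33 and TIGAR had 0.10. The G-start genes CDKN1A, BAX, DDB2 and MDM2 had 0.44, 0.14, 0.06 and −0.06. Taking the 5′ end of the gene record instead, again 5 begin with A, but CDKN1A, BAX and DDB2 are then among them and GDF15, XPC and BBC3 are not, so that the split rests on the start chosen. Over all protein-coding genes with an entry, the median difference was −0.37 for the 4472 that begin with A and −0.03 for the 5209 others. These are descriptions, with no test, and the start in use in MEL624 cells is not known here.

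IPs of the 2 genotypes compared directly combine abundance and pull-down. CDKN1A, DDB2, GDF15, BBC3 and XPC were lower in KO IPs and none of the 10 was higher, against 49% of all genes, 26% lower and 23% higher. CDKN1A was 1.82-fold lower (log2 −0.87 ± 0.13, SE, adjusted p = 2.80e-05) and DDB2 1.55-fold lower (log2 −0.63 ± 0.13, SE, adjusted p = 0.000686, limma). GDF15, BBC3 and XPC differed by −0.52, −0.50 and −0.46. MDM2 had −0.36 (adjusted p = 0.0748), with every KO IP below every control IP (54.6% of all genes had IPs that did not overlap in either direction). Without KO IP 1, the lowest MDM2 library, MDM2 had −0.15 (adjusted p = 0.416), and it passed without KO IP 2 (−0.46) or KO IP 3 (−0.46). TNFRSF10B had 0.20 (adjusted p = 0.0947) and BAX 0.13, and both turned below 0 under ribosomal protein centring, at −0.88 and −0.95. This comparison shares its libraries with those above.

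Regulators of p53 were read beside its targets. MDM4, the partner of MDM2 that blocks p53, had −0.33 (adjusted p = 0.361) between inputs and a difference of enrichment of −0.40 (adjusted p = 0.328). Of the 20 genes on the list of regulators, 1 was higher and 1 lower between inputs, 10% against 11.2% of all genes. CDKN2A was higher in KO inputs at 0.33 and CHEK2 lower at −0.58, and neither call held when any 1 input library was left out. In the difference of enrichment 2 of the 20 were higher and 4 lower, 30% against 28.8% of all genes. Among them, the ribosomal protein and MDM2 inhibitor RPL5 was higher in KO cells at 1.71. The acetyltransferase KAT5 at −0.57 and the checkpoint kinase CHEK2 at −0.76 were lower. The rise of RPL5 is shared by its class. Of 79 ribosomal protein mRNAs, 40 were higher and 4 lower with a median of 0.54, against 13% higher and 15.8% lower of all genes. The KAT5 call was lost without control input 2, and that of CHEK2 without control IP 2 and with limma voom (adjusted p = 0.0515).

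Further p53 targets were then read beside CDKN1A and DDB2. The lists were chosen with earlier results of these data known, so that their shares are descriptions and no test. Of 59 listed, 53 were measured, and 8 were lower and 5 higher in KO inputs. These are 24.5% of the 53, against 11.2% of all genes (5.67% lower and 5.56% higher), and the median was −0.11, against −0.02 for all genes. Leaving out 1 input library left 5 to 7 lower and 1 to 3 higher. Of 14 further arrest genes, 5 were lower and 3 higher, 57.1% against the 11.2% of all genes. SFN, the 14-3-3 protein that holds back mitotic entry, had 12.1, 13.1 and 8.20 CPM in KO inputs against 50.3, 46.6 and 38.0 CPM in control inputs. SFN was 4.09-fold lower, a log2 difference of −2.03 ± 0.16 (SE, adjusted p = 6.03e-08, limma). BTG2, an antiproliferative factor, and RPS27L, a ribosomal protein paralogue induced by p53, were lower by log2 differences of −1.14 and −0.60. PLK3, a stress-responsive kinase, was higher at 0.69, a call lost without KO input 1 (adjusted p = 0.0598).

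Of 18 further apoptosis genes 1 was higher and 1 lower, and this 11.1% is close to the 11.2% of all genes. PMAIP1, which encodes the BH3-only protein NOXA, had 317, 320 and 396 CPM in KO inputs against 224, 237 and 232 CPM in control inputs, a log2 difference of 0.57. Its 20 neighbours within 5 Mb had a median of 0.46, and 1 of them was below 0, and the part of this in its own difference was not tested. CASP1, an inflammatory caspase, had only 1, 2 and 4 reads in KO inputs against 5, 10 and 9 in control inputs. CASP1 was lower at −1.63, a call lost with limma voom on the reads (adjusted p = 0.0660). It was also lost in a limma fit of the input libraries alone (adjusted p = 0.0829) and without KO input 1 or 2 or control input 2 or 3. Of 21 further repair and metabolism genes 1 was higher and 2 lower, 14.3% against 11.2% of all genes. PCNA, the sliding clamp of DNA replication and repair, had 113, 107 and 90.7 CPM in KO inputs against 185, 193 and 192 CPM in control inputs, a log2 difference of −0.89. Of its 50 neighbours within 5 Mb, 46 were below 0 with a median of −0.54, and the part of this in its difference was not tested. CMBL, a hydrolase, was lower at −0.56, and SESN2, a sestrin that restrains mTORC1, higher at 0.72. The CMBL call was lost without control input 1, and that of SESN2 without KO input 1 or 2 or control input 2 or 3. Under ribosomal protein centring none of the 53 was higher and 6 were lower.

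Genes that p53 represses through p21 and the DREAM complex were counted as well, because CDKN1A was lower. Of 16 such cell-cycle genes, E2F1, a transcription factor of S-phase entry, was higher in KO inputs at 0.54 (adjusted p = 0.0213) and none was lower. This is 6.25% of the list, against 11.2% of all genes, and the median was 0.07. The E2F1 call was lost without any 1 input library other than KO input 2. PLK1, a mitotic kinase, had 0.33 (adjusted p = 0.170) and was called higher with limma voom (adjusted p = 0.0498) and in a fit of the input libraries alone (adjusted p = 0.0435). In the difference of enrichment 3 of the 16 were higher and 6 lower, against 13% higher and 15.8% lower of all genes. Of the 12950 genes with a mean log2 CPM of at least 1, 2078 were higher and 2627 lower. AURKB at −1.23, BIRC5 at −1.16 and FOXM1 at −1.13 were among the lower ones. The higher ones, named after their values were seen, were CCNB1 at 0.93, CDK1 at 0.85 and TOP2A at 0.42, and their sign turned under ribosomal protein centring (−0.071, −0.15 and −0.59). The TOP2A call was lost without KO input 1 or control input 3.

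**Figure D4:**
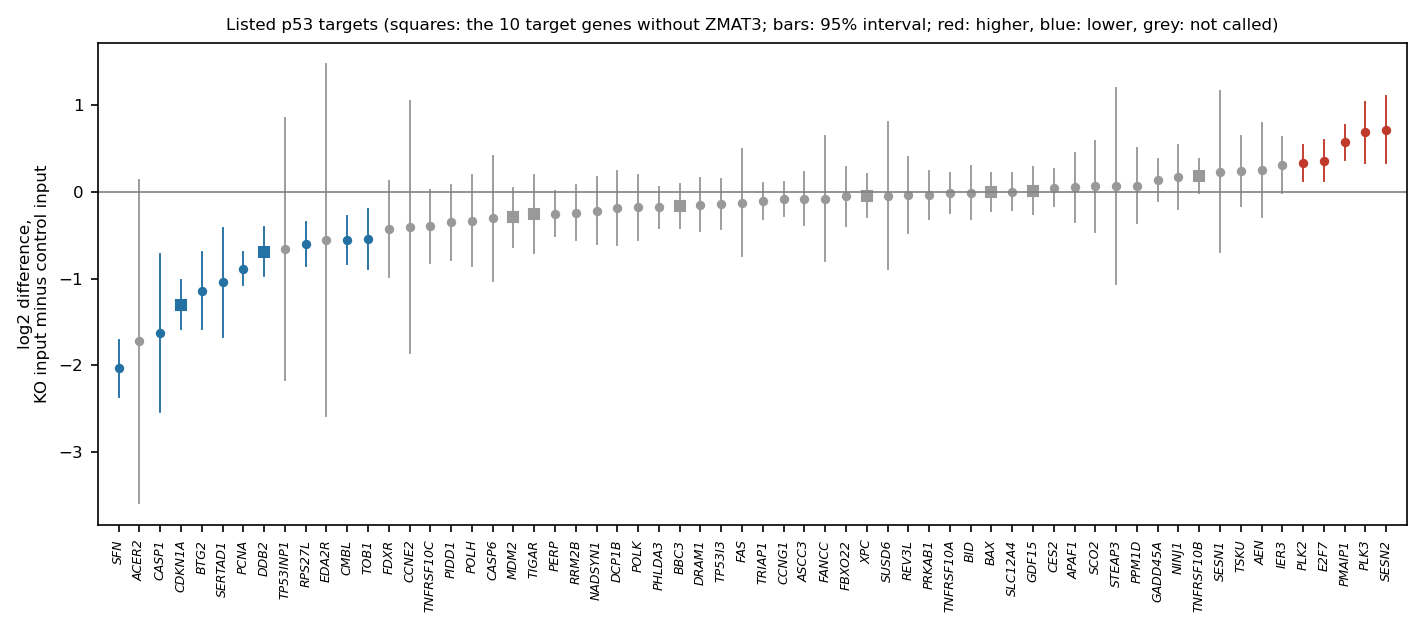
Log2 difference of KO input minus control input for the listed p53 targets in order of size, with 95% intervals. Squares are the 10 genes described first without ZMAT3, circles are further targets, and red, blue and grey mark higher, lower and not called. SFN, ACER2 (not called), CASP1, CDKN1A, BTG2, SERTAD1, PCNA and DDB2 lie at the low end and SESN2, PLK3 and PMAIP1 at the high end. Wide intervals belong to genes with few reads.

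In the difference of enrichment 7 of the 53 further targets were higher in KO cells and 13 lower, 37.7% against 28.8% of all genes (13% higher and 15.8% lower). The median was −0.25, against −0.06 for all genes. With a filter of mean log2 CPM of at least 1, 4705 of 12950 genes were called, and the median was −0.09. The targets were not tested against genes of like level. The apoptosis gene PMAIP1 had −1.29, the arrest genes FBXO22, PLK3 and TOB1 had −1.53, −1.30 and −1.30, and PCNA had −1.12. CCNG1, an atypical cyclin, went the other way at 1.15, as did the polymerase POLK at 1.41 and the decoy receptor TNFRSF10C at 1.11. Under ribosomal protein centring these 3 kept a positive sign but did not pass. Opposite-strand genes cover the starts of POLK and FOXM1 and lie beside those of CHEK2, TOB1, BTG2 and CCNG1. By the gene record, the PCNA start lies 253 bases from that of CDS2 on the opposite strand. The TNFRSF10C start lies inside other genes on its strand, so that the reads of all these genes are uncertain. SFN had −0.48 (adjusted p = 0.118).

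Over the 12 libraries the genes with the pattern most like that of CDKN1A, among 9266 with a name and a mean log2 CPM of at least 3, were IL18, GPAT3 and TCAF1, with Pearson r of 0.987, 0.980 and 0.953. For MDM2 they were ADISSP, DAG1 and MTCH2 (r of 0.990, 0.986 and 0.983), and for GDF15 TMED3, JAGN1 and SLC66A1 (0.927, 0.920 and 0.919). The points share 4 groups and the split of IPs and inputs, so that these values describe the pattern only.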

How the data were processed

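The 12 second-stage libraries were used, 3 in each of 4 groups. The deposited values are log2 CPM of reads at gene starts. Per the submitters' processing notes, the authors used build hg38, edgeR 3.12.1 in R 3.3.3, featureCounts, HISAT2 2.0.4, deepTools 3.0.2 and SAMtools 1.7, with no role stated. Nothing used here gives the window, annotation or strand setting. With a mean added count of 0.25, 100% of values came out as whole reads within 0.01, which gives the depth. For genes with few reads, a fold change on this scale can lie above or below that of summed reads. For ZMAT3, IP against input was 9.50-fold on this scale and 6.37-fold by summed reads in control cells. In KO cells it was 2.80-fold and 3.26-fold.

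A limma model (version 3.58.1, R 4.3.3) with 1 mean per group and a mean-variance trend gave 5 two-sided contrasts. Calls needed a p under 0.05 after Benjamini-Hochberg adjustment over all 16009 genes, and all genes passed the filter of log2 CPM of at least 0 in at least 3 libraries. The fit was run on simulated data as a check of the code only, and no result here rests on it. An exact test of 3 against 3 libraries cannot go below 0.10, so that none was run. Columns carry numbers and labels carry letters, so that columns were assigned to groups only. Gene positions come from GENCODE 44, which held 15903 of the identifiers.

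Named genes were the 10 targets, MDM4 and PCIF1, up to 4 genes of each wider list with the smallest adjusted p in KO input minus control input and up to 4 in the difference of enrichment, and the 3 most similar genes to CDKN1A, MDM2 and GDF15. MIR3189, LSM3, DINOL, CCNB1, CDK1, TOP2A, SERTAD1 and SFN, BTG2, CASP1 or PCNA in a second contrast were read after values were seen. A further gene that the rule names is not reported here. The members and lists were chosen with earlier results of these data known. Alternatives were another pseudocount, filter and centring, limma voom on the recovered reads, a replicate block, a fit of the compared groups alone, and leaving out each library.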

Additional observations from a re-analysis of the deposited data

Results flagged for a closer look

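GDF15 had an antibody enrichment that differed between the genotypes in a direct test of that difference. The difference of enrichment, KO minus control, was −0.53 on the log2 scale (adjusted p = 0.0339, limma), with all 3 KO IPs below all 3 control IPs and overlapping inputs. Of all genes, 28.8% were called in this difference, and 54.6% had IPs that did not overlap between the genotypes in either direction. GDF15 had 503, 481 and 350 CPM in KO IPs and 670, 553 and 678 CPM in control IPs. The call was lost in 7 of the 12 fits without 1 library.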

How the results depend on the processing

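Before centring, ribosomal protein mRNAs had medians of −0.57 (KO IP minus input), −1.14 (control IP minus input) and 0.54 (difference of enrichment). With ribosomal protein mRNAs as the zero point the median of all genes moved to 0.24 (KO IP minus input), 1.29 (control IP minus input), −1.06 (difference of enrichment), −1.12 (KO IP minus control IP) and −0.09 (inputs), and directions are read against these shifts. The 10 targets called were then 9 in the difference of enrichment, all lower, against 1, and 9 in KO IP minus control IP, against 5. Signs turned for BBC3 in control enrichment (1.10), for CDKN1A (−0.57), BAX (−0.86), TIGAR (−0.90), DDB2 (−0.94), TNFRSF10B (−0.99), CES2 (−0.41), CCNB1 (−0.071), CDK1 (−0.15) and TOP2A (−0.59) in the difference of enrichment, and for BAX (−0.95) and TNFRSF10B (−0.88) between IPs. Called genes in the whole table were then 5507 higher and 3270 lower in KO cells (otherwise 4546 and 4966), 10576 and 685 in control cells (4429 and 4515), 303 and 8361 for the difference of enrichment (2083 and 2522), 531 and 10556 between IPs (3675 and 4168), and 343 and 659 between inputs (890 and 908). Leaving out 1 library left 0 to 2 of the 10 called in the difference of enrichment, 5 to 6 between IPs, 2 to 3 between inputs, 8 to 9 in control and 8 to 8 in KO enrichment. ZMAT3 became called between inputs without control input 1, the only control input with ZMAT3 reads (3). Over all genes, 1177 to 1435 were called between inputs when 1 input library was left out, against 1798. Deviations of same-numbered columns correlated with r of −0.08 to 0.24. All 12 pairs of columns numbered 1 or 3 were over 0.1 and none of the 6 pairs numbered 2, against 3 of 36 pairs with different numbers, and 9 of 12 libraries correlated best with their own number. The labels give no pairing and not every pair was over 0.1, so that the numbers were not used as pairs, and this is a hint from the data only. The replicate block kept the call of all 50 results of the 10 targets (GDF15 −0.53, adjusted p = 0.00921) and gave 2216 calls between inputs over all genes, against 1798, and it called PLK1 higher between inputs (0.33, adjusted p = 0.0238). Median centring kept all 50, and log2(CPM + 1), voom and the fit of the compared groups each added 1 call, which was ZMAT3 enrichment in KO cells for log2(CPM + 1) and voom and BBC3 depletion in control cells for the compared groups. A filter of mean log2 CPM of at least 1 removes ZMAT3 and changed no other call of the 10. The difference of enrichment uses all groups, so that a fit of the compared groups alone is the same fit. The causes were not tested. Depth limits what can be read from ZMAT3.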
